A study of Talpa occidentalis with 2 samples.

Results

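The C-type lectin and killer cell lectin-like receptor genes of the Iberian mole, Talpa occidentalis, were read from the gene annotation deposited for the build talOcc3. A gene was taken when its symbol began with CLEC, a number and a letter, or with KLR, a letter from A to K and a number, after the suffix that marks a further copy had been removed. This gave 45 gene models under 28 symbols, of 23336 models and 16075 symbols in the whole annotation. Of these, 20 symbols with 25 models were CLEC genes and 8 symbols with 20 models were KLR genes. The series itself followed the contacts of the FGF9 transcription start by 4C-seq, in which fixed chromatin is cut and ligated so that partners of a chosen viewpoint can be sequenced. It holds 1 library from forebrain and 1 from hindlimb of wild-type embryos at embryonic day 15. The annotation has no column for either library, 4C contacts were not analysed here, and 0 of the 45 models lay on scaffold 38, which carries FGF9. Every value below describes 1 annotated genome, so there are no replicates and no test was made.

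C-type lectin-like receptors carry a compact extracellular domain that binds sugars in some of them and proteins or lipids in others. In mammals many of their genes lie side by side in the natural killer complex, which is on chromosome 12 in human. The KLR genes of that complex encode receptors by which natural killer cells read the presence or stress of other cells, and its CLEC genes encode receptors of myeloid cells and platelets for fungal, bacterial and damaged-cell products. Receptor families in the complex are known to differ in copy number between mammals, the Ly49 (Klra) family of the mouse being the usual example.

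The annotation placed 27 of the 45 models, under 15 symbols, on scaffolds 34 and 52, where they lay among genes that flank the human complex. Scaffold 34 carried 24 and scaffold 52 carried 3. A further 5 models, all KLR, stood on scaffolds whose annotation reached less than 1 Mb: KLRC2, KLRC2_copy2, KLRC1, KLRD1_copy5 and KLRB1_copy3. The share on such short scaffolds was 11.1% of the members and 12.5% of all models. The remaining 13 models, under 12 symbols, were spread over the other scaffolds.

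**Figure D1:**
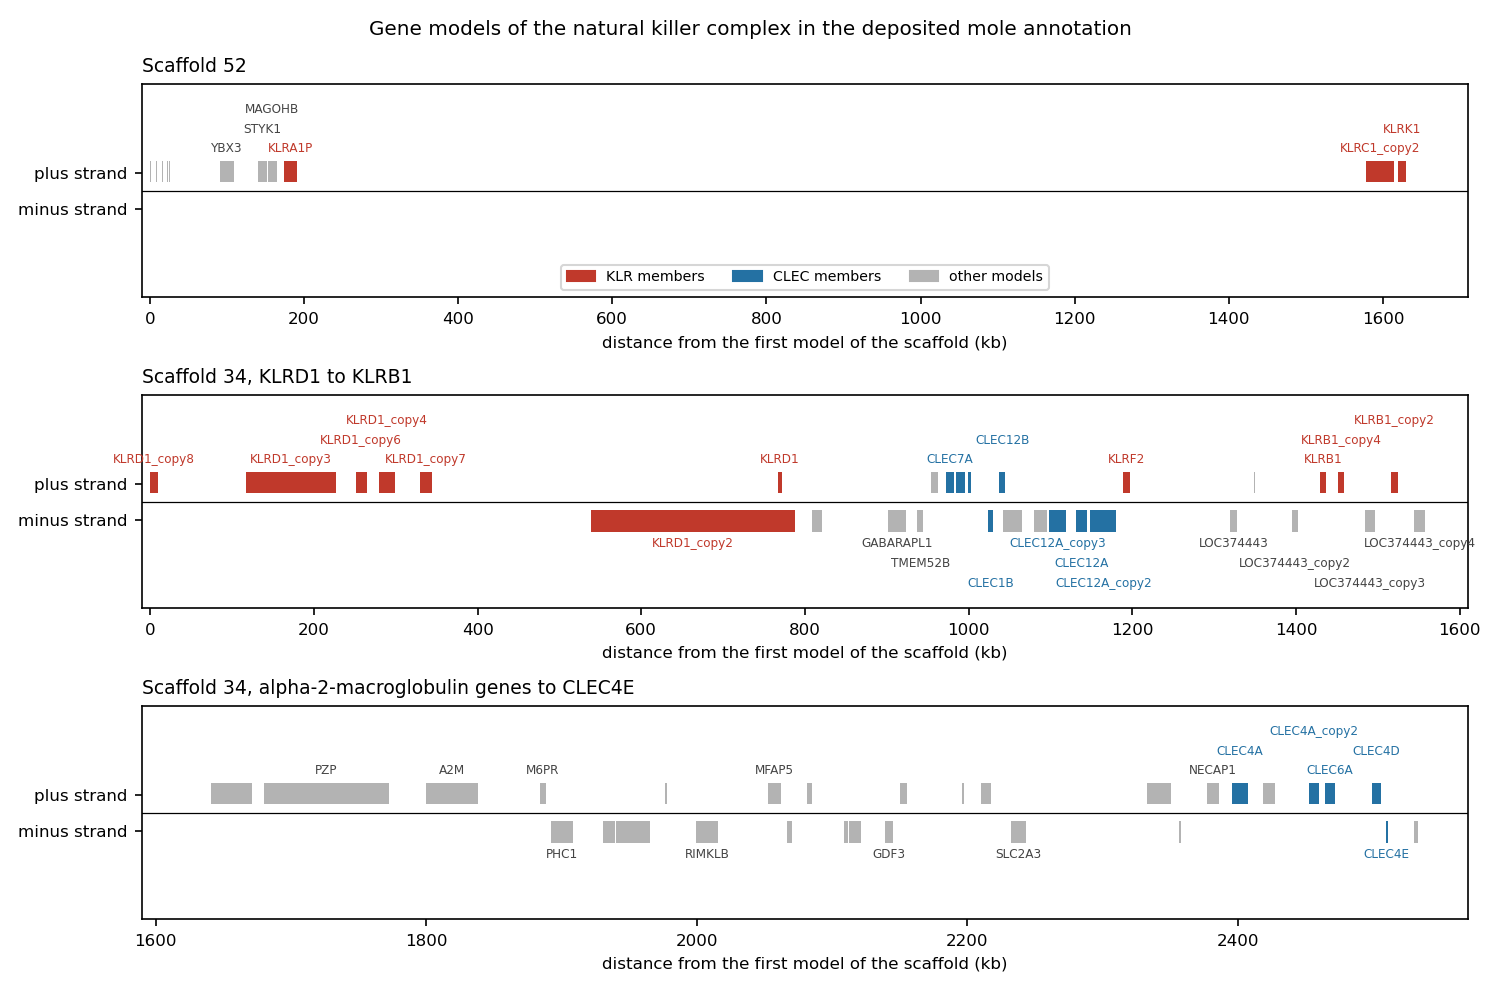
Gene models of the natural killer complex, drawn to scale as boxes along scaffold 52 (upper panel) and scaffold 34 (middle and lower panels), with the distance from the first model of each scaffold in kb on the horizontal axis and the strand on the vertical axis. KLR members are red, CLEC members blue and other models grey; 7 KLRD1 models fill the start of scaffold 34, CLEC genes follow them, and a stretch of 1.39 Mb on scaffold 52 holds no model.

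The order of genes along the complex was set against 44 genes of the human complex, listed from general knowledge. A model existed for 33 of them, which made 32 successive pairs, and 28 pairs were kept. Kept pairs shared a scaffold, started no more than 2 Mb apart and had less than 5 further listed genes in between. Symbols with copies were represented by whichever copy stood closest to their listed neighbours, which favours kept pairs in advance. CLEC4A_copy2 and KLRC1_copy2 were taken in this way, with 48.8% and 57.1% of the best score for their symbols. Taking the highest-scoring model of each symbol instead kept 27 pairs. KLRC1_copy2 and MAGOHB counted as kept at 1.42 Mb, across a long stretch of scaffold 52 without a model. Of the 4 pairs that were not kept, 3 joined different scaffolds: KLRD1 and KLRK1 (scaffolds 34 and 52), KLRK1 and KLRC2 (52 and 281), and KLRC2 and KLRC1 (281 and 52). Read from MFAP5, scaffold 34 ran through GDF3, SLC2A3, FOXJ2, C3AR1 and NECAP1 to CLEC4A, CLEC6A, CLEC4D and CLEC4E, so the block from SLC2A3 to CLEC4E was turned relative to the human list. RefSeq genes of a later build of the mole genome, MPIMG_talOcc4v2.1, used for names, neighbour order and gene counts but not for coordinates, included 28 of the listed genes and kept 25 of 27 pairs.

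Scaffold 34 opened with the KLRD1 models and ran on through genes that included GABARAPL1, TMEM52B, OLR1, CLEC7A, CLEC1B, CLEC12B, CLEC12A, KLRF2 and KLRB1. OLR1, a scavenger receptor for oxidised lipoproteins, has the same lectin fold but lies outside the naming rule. From the first KLRD1 model to the last KLRB1 model the run covered 1525 kb (positions 12589 to 1537241) and held 19 member models of 8 symbols with 10 other models between them. Of the 19 models, 14 lay on the plus strand and 5 on the minus strand. Model density was 19.0 per Mb there, against 10.7 per Mb over all scaffolds of at least 1 Mb. The 26 gaps between neighbouring models in the run had a median of 17.7 kb and ranged between 2.03 and 194 kb. The median over all 20408 gaps of the annotation was 16.3 kb.

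A second, tighter run on the same scaffold covered 115 kb (positions 2407955 to 2523172). It held CLEC4A, CLEC4A_copy2, CLEC6A, CLEC4D and CLEC4E, with RPL9_copy28 as the only other model. Its 5 gaps had a median of 11.0 kb and its density was 52.1 models per Mb. NECAP1, the neighbour of CLEC4A in the human list, lay 9.04 kb before it.

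Scaffold 52 carried the other end of the human order. After 5 bitter taste receptor models (TAS2R) it ran YBX3, STYK1, MAGOHB and KLRA1P, and then no model lay between positions 194680 and 1581492. Only 52 of the 20408 gaps, 0.255%, were as long as or longer than these 1.39 Mb. Beyond that stretch followed KLRC1_copy2 (1581493 to 1618408) and KLRK1 (1623392 to 1633587). KLRK1 was the last model of scaffold 52, and the first model of scaffold 34 was KLRD1_copy8, which starts at position 12589. In the human list KLRK1 and KLRD1 are neighbours.

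At least 2 models were present for 8 of the 28 member symbols (28.6%), against 14.6% of all symbols. Counting only models with at least 2 coding exons, the members still numbered 8, against 8.77% of all symbols. KLRD1 had 8 models, KLRB1 4, CLEC12A 3, and those with 2 each included CLEC10A, CLEC4A, KLRC1 and KLRC2. A tandem was defined as models of 1 symbol on 1 strand whose starts follow each other within 100 kb. Such tandems held 15 member models of 6 symbols (21.4% of 28), against 7.00% of all symbols. Some of these models covered only part of their target. After models that overlap, or that match separate parts of the target transcript, had been joined, CLEC10A and CLEC1A counted 1 each and KLRD1 counted 6. The joining took no account of strand or distance. It joined KLRD1 with KLRD1_copy2, on opposite strands, and KLRD1_copy8 with KLRD1_copy6, which have KLRD1_copy3 between them. The 6 is therefore not a corrected number of KLRD1 copies. Joining left 6 of the 28 symbols with at least 2 models and 4 with a tandem, and the shares over all symbols were counted without joining.

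KLRD1 encodes CD94, the partner with which the NKG2 proteins of the KLRC genes form receptors for the nonclassical class I molecule HLA-E in human. Its 8 models made it the most copied member. In the whole annotation 100 symbols (0.622%) had at least 8 models, and KLRD1 was the only 1 of them in which every model had at least 4 coding exons, a limit read off KLRD1 itself. On scaffold 34, 6 models lay on the plus strand and KLRD1_copy2 on the minus strand. The gaps between neighbouring models, taken in scaffold order, were 108, 24.7, 15.1, 30.2 and 194 kb. KLRD1_copy6, KLRD1_copy4 and KLRD1_copy7 formed the tandem, 93.2 kb long. With a limit of 200 kb the tandem took in 5 models, and with 50 kb it took in 2.

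The highest score among them belonged to the model named KLRD1 without a suffix, at positions 779505 to 784240, with 6 coding exons, a coding length of 540 bases and a deposited score of 349. The score was deposited by the authors with each transcript, without a statement of how it was calculated, and is used here only to rank models of 1 symbol. KLRD1_copy2 and KLRD1_copy3, the largest models, scored 92.6% and 84.5% of it. KLRD1_copy4 scored 80.5% with 10 coding exons and 945 coding bases. KLRD1_copy6 and KLRD1_copy7 scored 63.0% and 62.5%, with 6 coding exons each. KLRD1_copy5, alone on scaffold 345, scored 63.9% with 5 exons. KLRD1_copy8 scored 29.8% with 4 exons, and matched only positions 192 to 301 of its target. The 7 models from the source named ALN were aligned from 6 different query proteins.

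A pair of KLRD1 models was far larger than the rest. KLRD1_copy2 (550780 to 800263) spanned 249 kb with 32 coding exons, 2916 coding bases and a longest intron of 93.4 kb. KLRD1_copy3 (130181 to 239378) spanned 109 kb with 29 coding exons, 2757 coding bases and a longest intron of 36.4 kb. Both came from ALN, and of the 2411 models of that source only 4 (0.166%) had at least 29 coding exons. Over the whole annotation 3.03% of models had that many. The part of each model that was matched was 3.20 times as long as the target part for KLRD1_copy2 and 3.52 times for KLRD1_copy3. Among the 45 members 3 reached a ratio of 2, the third being CLEC20A with 2.02, against 4.14% of all models with a recorded target. The model KLRD1 lay wholly inside an intron of KLRD1_copy2 of 25.9 kb (769326 to 795230), on the opposite strand.

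The exon lengths of both large models repeated. A coding exon of 152 bases, which occurs once in KLRD1, occurred 4 times in KLRD1_copy2, with starts 17.0, 12.7 and 110 kb apart, and 3 times in KLRD1_copy3, with starts 33.8 and 26.0 kb apart. The last 3 coding exons of KLRD1_copy2 measured 152, 104 and 118 bases, exactly as in KLRD1. KLRD1_copy6 ended with exons of 104 and 118 bases as well. Exons of 152 bases made up 9 of the 93 coding exons of the KLRD1 models on scaffold 34 (9.68%). Over all members of the complex they made up 15 of 202 (7.43%), against 0.423% of the 180386 coding exons of all models. This length was picked because it was frequent in the complex, these KLRD1 models included, so a high share was built in. Whether each large model joins several genes was not tested, since a talOcc3 sequence was not used here.

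**Figure D2:**
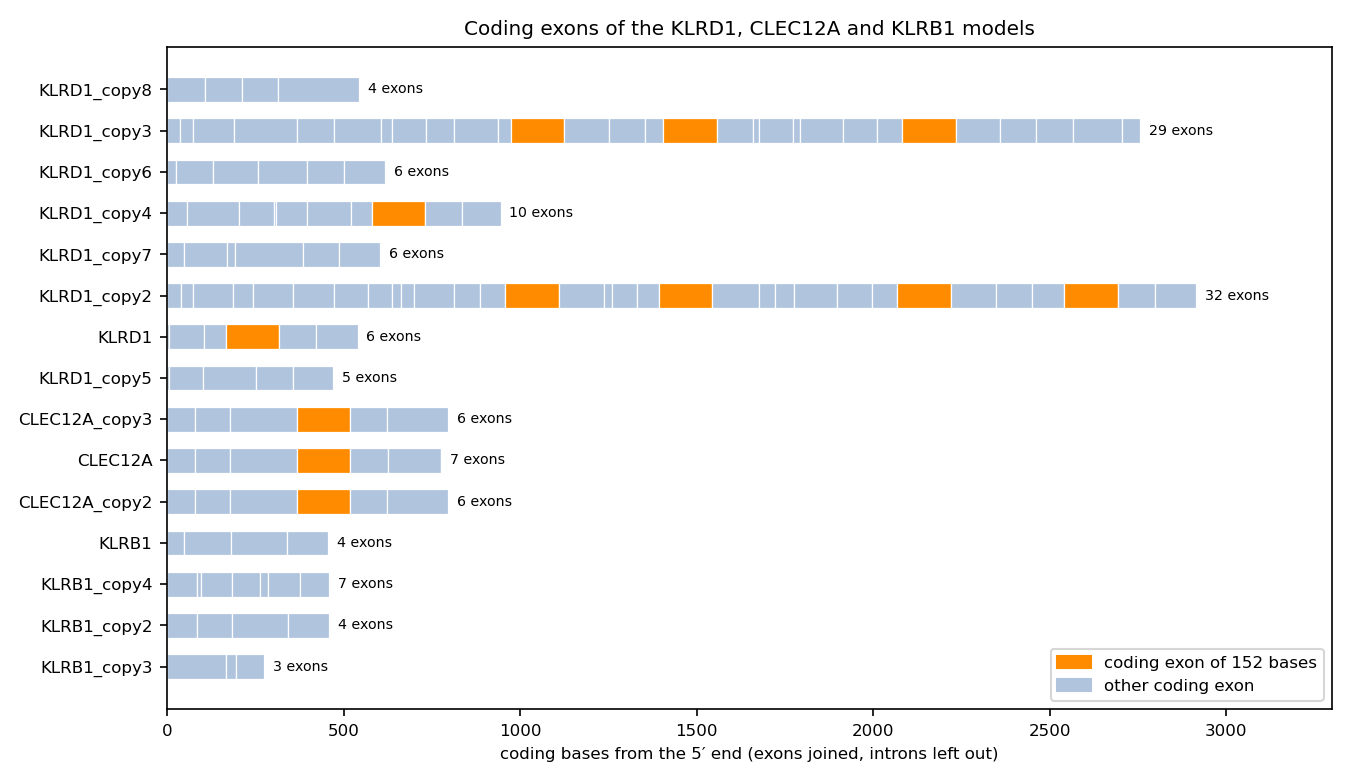
Coding exons of the KLRD1, CLEC12A and KLRB1 models, 1 row per model, with coding bases from the 5′ end on the horizontal axis, introns left out and exon borders as white lines. Coding exons of 152 bases are orange; they recur 4 times in KLRD1_copy2 (32 exons) and 3 times in KLRD1_copy3 (29 exons), and stand at the same place in all CLEC12A models.

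CLEC12A encodes an inhibitory receptor of myeloid cells that recognises uric acid crystals of dying cells. Its 3 models formed the most regular tandem, 82.1 kb long on the minus strand of scaffold 34 (1111186 to 1193296). CLEC12A_copy3 (1111186 to 1131321) had 6 coding exons and 795 coding bases over 20.1 kb. CLEC12A (1143714 to 1157496) had 7 coding exons and 777 coding bases over 13.8 kb. CLEC12A_copy2 (1160867 to 1193296) had 6 coding exons and 795 coding bases over 32.4 kb. Their edges stood 12.4 and 3.37 kb apart, with no other model between them.

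The exon lengths of CLEC12A_copy2 and CLEC12A_copy3 were equal in all 6 exons: 79, 99, 189, 152, 104 and 172 bases. CLEC12A shared the first 4 of these and then had exons of 107, 149 and 2 bases. The scores of CLEC12A_copy2 and CLEC12A_copy3 were 97.0% and 90.1% of that of CLEC12A, which scored 363. All 3 were aligned by ALN from 1 query protein. CLEC12A_copy3 and CLEC12A matched positions 189 to 960 of the target, whereas CLEC12A_copy2 matched positions 189 to 772. All 3 stayed together at limits of 50, 100 and 200 kb, and joining of partial models left the number at 3.

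KLRB1 encodes CD161, a receptor of natural killer and T cells that in human binds the product of CLEC2D. The 3 models on scaffold 34 lay on the plus strand over 95.7 kb. KLRB1 (1441509 to 1449671) and KLRB1_copy2 (1529243 to 1537241) had 4 coding exons each and 456 and 459 coding bases. Their last exons were equal, at 158 and 117 bases, and KLRB1_copy2 scored 95.4% of KLRB1. KLRB1_copy4 (1463837 to 1471563) had 7 coding exons of at most 90 bases, matched only positions 516 to 590 of its target and scored 56.9%. KLRB1_copy3, with 3 exons, was the only model on scaffold 12170 and scored 78.5%. A set of 4 models named LOC374443, all on the minus strand, lay before, between and after the KLRB1 models on scaffold 34.

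The remaining KLR members were receptors or receptor subunits with fewer models. KLRK1 encodes NKG2D, an activating receptor for stress-induced ligands such as MICA, and had 8 coding exons and 666 coding bases. KLRF2 (1201450 to 1210091), whose human product NKp65 binds that of CLEC2A, had 5 coding exons and 552 coding bases. KLRA1P, named after the human remnant of the Ly49 family, had 6 coding exons on scaffold 52 (178058 to 194679) and 846 coding bases, a multiple of 3. KLRC1 and KLRC2 encode the inhibitory NKG2A and the activating NKG2C in human. Of their 4 models, KLRC1_copy2 lay on scaffold 52 with 8 coding exons and 681 coding bases, and the other 3 lay alone or with 1 other model on scaffolds 281, 406 and 477. The better-scoring KLRC1 model was the one on scaffold 477, and KLRC1_copy2 scored 57.1% of it. KLRC2_copy2, with 607 coding bases, and KLRC1, with 427, were the only members whose coding length was not a multiple of 3. Thus 43 of 45 members (95.6%) had such a length, against 87.8% of all models.

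Among the CLEC genes of the first run, CLEC7A (Dectin-1, a receptor for fungal beta-glucan) had 6 coding exons and 738 coding bases. CLEC1B, the platelet receptor for podoplanin, had 6 and 816, and CLEC12B, an inhibitory receptor, had 6 and 819. CLEC12B overlapped UNG_copy2, which lay on the opposite strand.

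In the second run, CLEC4A encodes DCIR, an inhibitory receptor of dendritic cells, and CLEC6A encodes Dectin-2, a receptor for fungal mannans. CLEC4A and CLEC6A had 6 coding exons each, with 723 and 714 coding bases. CLEC4D, also with 6, and CLEC4E (Mincle), with 2, encode receptors for mycobacterial glycolipids. The model of CLEC4E was the shortest member of the complex, with 276 coding bases over 0.865 kb, and was the only member model from exonerate. CLEC4A_copy2 had 4 coding exons, 417 coding bases and 48.8% of the score of CLEC4A.

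Members of the complex had a median of 6 coding exons (range 2 to 32) and 666 coding bases over 10.2 kb. All models had a median of 5 coding exons and 1011 coding bases over 7.03 kb. The 13 members elsewhere had a median of 5 coding exons and 1164 coding bases. Only 1 of the 45 members, CLEC14A, had a single coding exon, against 24.7% of all models. The source of the models differed between these sets: ALN supplied 18 of 27 in the complex and 2 of 13 elsewhere, against 10.3% of all models. By source, the 21 EVM members had a median of 4 coding exons, against 8 for all EVM models, and the 23 ALN members had a median of 6, against 2 for all ALN models. The direction of the difference in exon number therefore turned with the source. Within the complex the medians were 5 coding exons for 8 EVM models and 6 for 18 ALN models.

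**Figure D3:**
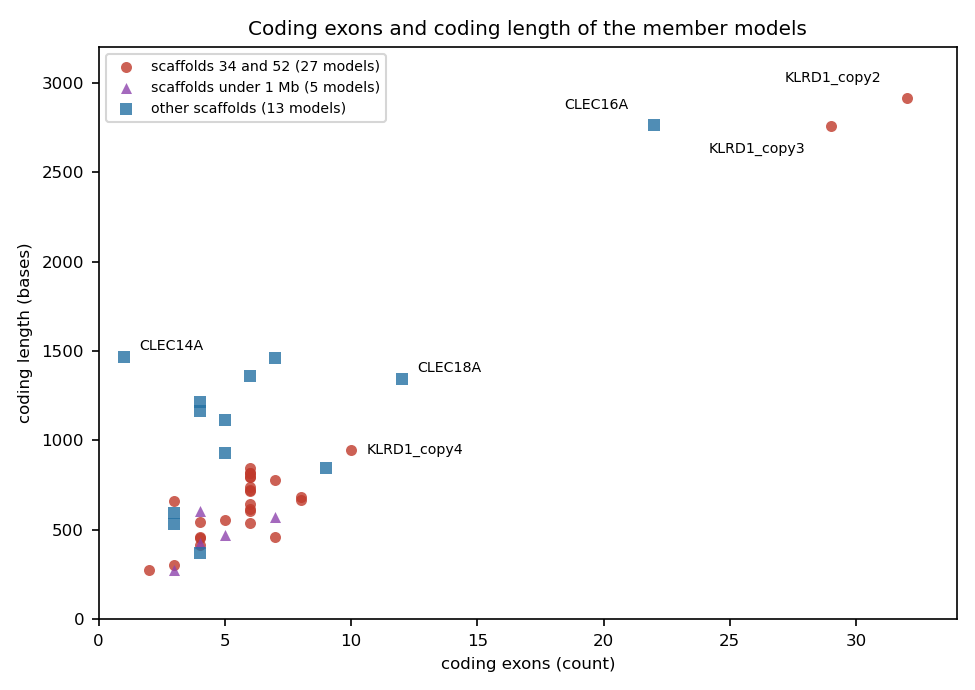
Number of coding exons (horizontal axis) and coding length in bases (vertical axis) of the 45 member models, 1 point each: 27 on scaffolds 34 and 52 (red circles), 5 on scaffolds under 1 Mb (purple triangles) and 13 on other scaffolds (blue squares). KLRD1_copy2 and KLRD1_copy3 stand apart from the other members of the complex, which have at most 10 coding exons.

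The coding-exon lengths held by most models of the complex were 99 bases (11 of 27), 152 bases (10 of 27) and 104 bases (9 of 27). These lengths were picked because they were the most frequent there, so their share in the complex is a description. A 99-base exon stood in second place in models that included CLEC7A, CLEC1B, CLEC12B, KLRF2, KLRB1_copy2 and all CLEC12A models. Over all models, 5.03% had an exon of 99 bases, 3.06% one of 152 bases and 4.22% one of 104 bases. Outside the complex, an exon of 152 bases was present in 3 of the 13 members on other scaffolds, an exon of 99 bases in 1, and one of 104 bases in 0.

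Members outside the complex formed 2 further runs. KLRG2 and CLEC2L lay on opposite strands of scaffold 5 (65511744 to 65552647), 28.7 kb apart, between LUC7L2 and HIPK2. CLEC10A, a lectin for galactose and N-acetylgalactosamine, had its pair of models on the minus strand of scaffold 25 (16597956 to 16617313), 1.29 kb apart. The asialoglycoprotein receptor genes ASGR2 and ASGR1, which share its lectin type, were on scaffold 25 too.

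The others stood alone among unrelated genes. CLEC16A, a regulator of endosomes and mitophagy, was the largest with 22 coding exons over 136 kb on scaffold 17. CLEC14A, an endothelial membrane protein, had 1467 coding bases in its single exon and lay 481 kb from the neighbouring SEC23A. CLEC18A had 12 coding exons and CLEC17A, a lectin of B cells, had 9. CLEC4F, known as a Kupffer cell receptor in the mouse, had 7 coding exons on scaffold 9, the fifth of them 152 bases long. The secreted members CLEC3B (tetranectin), CLEC3A (a cartilage protein) and CLEC11A (a growth factor of bone and blood progenitors) had 5, 3 and 4 coding exons. CLEC20A had 6. Spans of at least 100 kb occurred in 3 of 45 members, CLEC16A and the large KLRD1 pair, against 5.27% of all models.

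Of 42 human CLEC and KLR symbols listed from general knowledge, 27 had a model and 15 had none. The 15 were CLEC2A, CLEC2B, CLEC2D, CLEC4C, CLEC4G, CLEC4M, CLEC5A, CLEC9A, CLEC18B, CLEC18C, CLEC19A, KLRC3, KLRC4, KLRF1 and KLRG1. RefSeq lists 4 of these in the mole: CLEC2A, CLEC9A, KLRF1 and KLRG1. The absence of a name in the annotation therefore does not show the absence of the gene. Conversely 19 of the 28 member symbols were found in RefSeq, and 9 were not: CLEC4A, CLEC6A, CLEC12A, CLEC18A, KLRA1P, KLRB1, KLRC1, KLRC2 and KLRD1. The share of all symbols, or of all symbols with several models, that RefSeq lacks was not counted. Every member with at least 3 models was among these 9.

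Genes between shared neighbours were therefore counted in both annotations. The RefSeq table names no sequence, and its anchors were taken to share one because the start positions of its rows do not fall anywhere between YBX3 and PEX5. Between YBX3 and KLRK1 there were 4 deposited models, against 36 RefSeq protein-coding genes, all without a symbol. Between KLRK1 and GABARAPL1, the stretch with the KLRD1 models that crosses from scaffold 52 to scaffold 34, there were 8 deposited models against 23 RefSeq genes, again all without a symbol. Over both stretches the counts were 13 and 60, with KLRK1 counted. The deposited counts leave out the 5 members on scaffolds under 1 Mb. They also take the large models KLRD1_copy2 and KLRD1_copy3 as 1 model each. Between GABARAPL1 and PZP the counts were close: 1 and 1 up to OLR1, 4 and 4 up to CLEC12B, 5 and 6 up to KLRF2, and 9 and 11 up to PZP. The RefSeq genes without a symbol were not assigned to a family here, and whether they fill the stretch without a model on scaffold 52 was not tested.

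**Figure D4:**
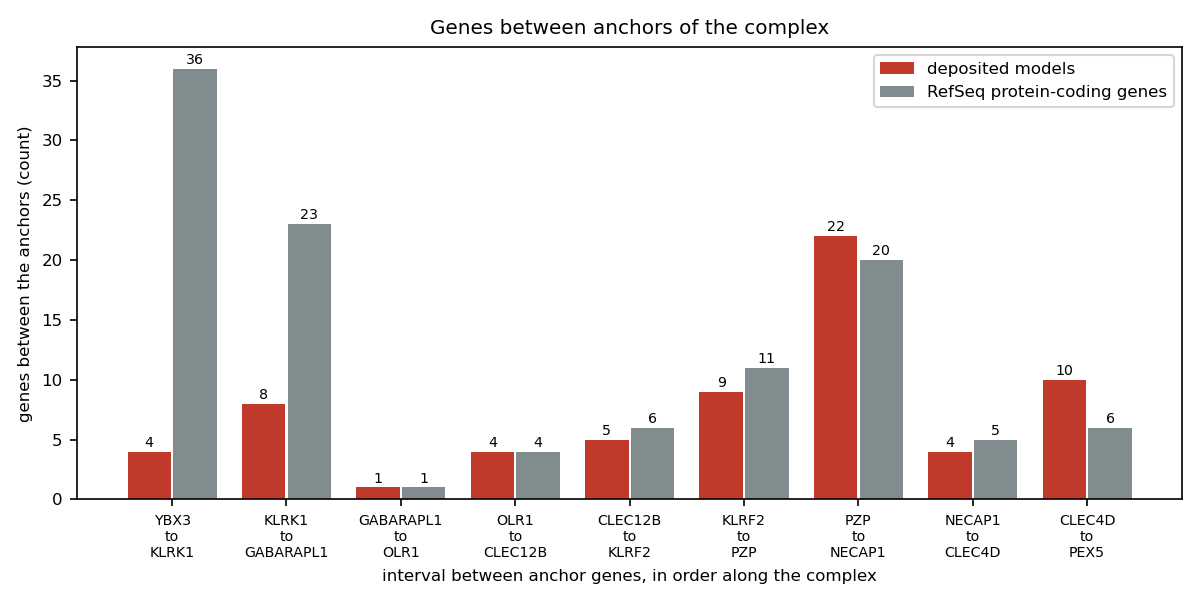
Number of genes between successive anchor genes along the complex (vertical axis, count) for each interval (horizontal axis), with deposited models in red left of RefSeq protein-coding genes of the later build in grey. The counts are 4 and 36 between YBX3 and KLRK1 and 8 and 23 between KLRK1 and GABARAPL1, and differ by at most 4 in every other interval. The 5 members on scaffolds under 1 Mb are in no interval.

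Partners of these receptors were counted from a list of 42 adaptors, signalling proteins, effectors and ligands. A model existed for 35, and 10 (28.6%) had at least 2, against 14.6% of all symbols. PRF1, the pore-forming perforin of killer cells, had 5 models with 1 or 2 coding exons in a tandem on scaffold 11. RAET1E, a ligand of NKG2D, had 3, and the ligand MICA and the granzymes GZMA and GZMB had 2 each. The others with 2 models were signalling proteins: LCK (4 and 5 coding exons), CARD9 (2 each), PIK3CD (5 and 7), PLCG1 and PLCG2 (1 and 31 each). Whether the models of 1 symbol are copies or parts of 1 gene was not tested for this list. TYROBP, FCER1G and SYK, which carry the signals of activating receptors, had 1 model each. HCST, the adaptor of NKG2D, was among the 7 without a model but is listed in RefSeq. HLA-E, the human ligand of CD94 with NKG2A, had no model, and neither did it appear in RefSeq by that symbol. Of 41 genes of the same fold outside the naming rule, 31 had a model and 2 (6.45%) had at least 2, against the same 14.6%: LY75 with 2 and ACAN with 3. The LY75 models had 3 and 24 coding exons and the ACAN models 4 to 6, and whether they are parts of 1 gene was not tested.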

How the data were processed

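The labels describe 4C-seq libraries of mole forebrain and hindlimb, with BWA as the tool named in the submitters' processing notes (version not stated). The file analysed was the deposited gene annotation of build talOcc3, with coordinates counted from 1. Its source, named in column 2, was EVM, exonerate or ALN, per the file itself, and the score of a transcript was deposited by the authors and how it was calculated is not stated. Python 3.11.15 and pandas 2.3.3 were used. Symbols came from column 9, without copy suffixes. Coding exons and coding length came from the CDS records of the 1 transcript of each gene, and a gap ran between the edges of neighbouring models. Runs joined member models whose starts followed each other within 500 kb. No depth applies to an annotation, and no test was made.

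The members, the gene lists and the human order were chosen with earlier results of these data known. The exon lengths and the RefSeq anchors were chosen after the values were seen. All member symbols could be named, with the models beside and between them and the listed genes; others named were picked for their values. RefSeq symbols were matched exactly. The tandem routine was tested on simulated data and found 184 of 184 planted symbols. A planned account of protein motifs was not made, since protein and genome sequences were not used here. Some genes and pairs that were counted are not reported here by name.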

Additional observations from a re-analysis of the deposited data

How the results depend on the processing

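In all, 27 alternatives were run, of which 1, the joining of separate target parts for tandems, was chosen after seeing the data. Every count stayed within 1.5 times of its value under the alternatives run for it, and 3 medians differed. Some alternatives could not change their count. Among the members 0 models were marked as low confidence, so leaving out such models had no effect. CLEC14A, the only member with a single coding exon, had 1 model. Leaving out single-exon models therefore could not change the symbols with at least 2 models or the tandems. The median number of coding exons of the members was 6 and came to 4 with EVM models only. The median spacing within runs was 14.6 kb between edges, 27.0 kb from start to start and 18.0 kb to the next member model. Member models numbered 40 to 45, member symbols 27 to 28, symbols with at least 2 models 6 to 8, symbols in a tandem 4 to 6, kept pairs 26 to 28 of 32 and runs 4 to 7. The RefSeq order kept 25 of 27 pairs, which come from another set of listed genes.

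No paired analysis was possible because there is 1 library per tissue and the annotation has no column for either. Coordinates, exons and names are those of 1 assembly and its models. Whether the models on scaffolds under 1 Mb repeat genes of scaffolds 34 and 52, and whether KLRD1_copy2 and KLRD1_copy3 each join several genes, was not tested. Near-identical genes of 1 family cannot be told apart by their names, which follow the authors' targets.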
